A study of Homo sapiens with 23 samples.

Results

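The response of SUDHL-2 cells to INK128 was measured on 6 of the 23 arrays of the series. SUDHL-2 is an established human cell line from a diffuse large B-cell lymphoma, and INK128 is a kinase inhibitor that blocks both mTOR complexes. The INK128 group held 3 arrays of cells given 40 nM INK128 for 24 h, and the DMSO group held 3 arrays of cells given the solvent at 0.01%. All 6 arrays carried polysomal RNA: lysates were spread over a sucrose gradient of 10 to 50%, 11 fractions were collected and RNA of fractions 9 to 11, the heaviest polysomes, was pooled and hybridised to an expression BeadChip after oligo-dT priming. The other 17 arrays belong to further treatments and lines, of which only SUDHL-4, a second lymphoma line given the same dose and solvent with 3 arrays per group, was set beside SUDHL-2. The labels name no genetic change in either line. The study calls the 3 replicates of a group independent. Neither it nor the labels say that they came from separate cultures, so the p-values measure the spread between these arrays.

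Of 47231 probes with values, 14693 were kept: all 3 arrays of the INK128 group, or all 3 of the DMSO group, had to detect the probe (p no higher than 0.02). Among them, 13173 were detected on all 6 arrays, 789 were kept through the INK128 arrays only and 731 through the DMSO arrays only. Probes of one gene were averaged, which gave 11907 entries: 8925 genes with a single symbol and 2982 probes without one. A value is the normalised log2 signal of an array, and a difference is the INK128 mean minus the DMSO mean on that log2 scale. An entry was called where limma, fitted on 12 arrays with SUDHL-4 sharing the estimate of spread, gave a p-value adjusted over all 11907 entries (Benjamini-Hochberg) under 0.05, and "rose", "fell", "higher" and "lower" are used of called entries.

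The labelled cell type was checked first. Of 8 B-cell markers with a probe, 7 were detected on all arrays of both groups (CD22, CD74, CD79A, CD79B, MS4A1, BLK and HLA-DRA), and PAX5 was not. Of 13 markers of the activated B-cell subtype, 11 were detected on all INK128 arrays and 9 on all DMSO arrays, among them IRF4 and BATF. Of 11 germinal-centre markers with a probe, 7 were detected on all INK128 arrays and 6 on all DMSO arrays, among them BCL6 and MME. None of 7 NK-cell markers passed in either group, and of 11 T-cell markers CD2 alone passed, on the DMSO arrays.

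Background for what follows: mTOR is a serine/threonine kinase that works in 2 complexes. mTORC1 senses amino acids and growth factors and promotes ribosome production, translation of growth-related mRNAs and nucleotide, lipid and amino acid metabolism, while it restrains autophagy. mTORC2 activates AKT, which keeps FOXO transcription factors out of the nucleus. In B-cell lymphoma both complexes lie downstream of B-cell receptor signaling. A polysomal array reads the transcripts that carry many ribosomes. From these arrays alone, a change in a gene's transcript number and one in its share on heavy polysomes cannot be told apart. The study also measured total mRNA by RT-qPCR for FKBP11, MARS1, CDC25A, TCL1A, LYN and YWHAZ. It reports no change after treatment for most of them, and a rise of TCL1A after INK128. Each array was scaled to itself, so a shift of the whole polysomal pool is not seen.

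INK128 changed 523 of the 11907 entries (4.39%), with 313 higher (2.63%) and 210 lower (1.76%). The shares of 2.63% higher and 1.76% lower are to be set beside each list count below. Of the called entries, 376 were genes with a single symbol, 269 of them higher and 107 lower. Changes were moderate in size: 36 entries were higher by more than 1 on the log2 scale and 42 were lower by more than 1. In each of the 523 entries the INK128 arrays and the DMSO arrays did not overlap, as was the case for 11% of all entries in the upward and 9.58% in the downward direction. When the arrays were scaled by their medians the called entries divided into 145 higher and 151 lower, against 313 and 210 with the scaling used here. The median difference over all entries was 0.01.

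**Figure D1:**
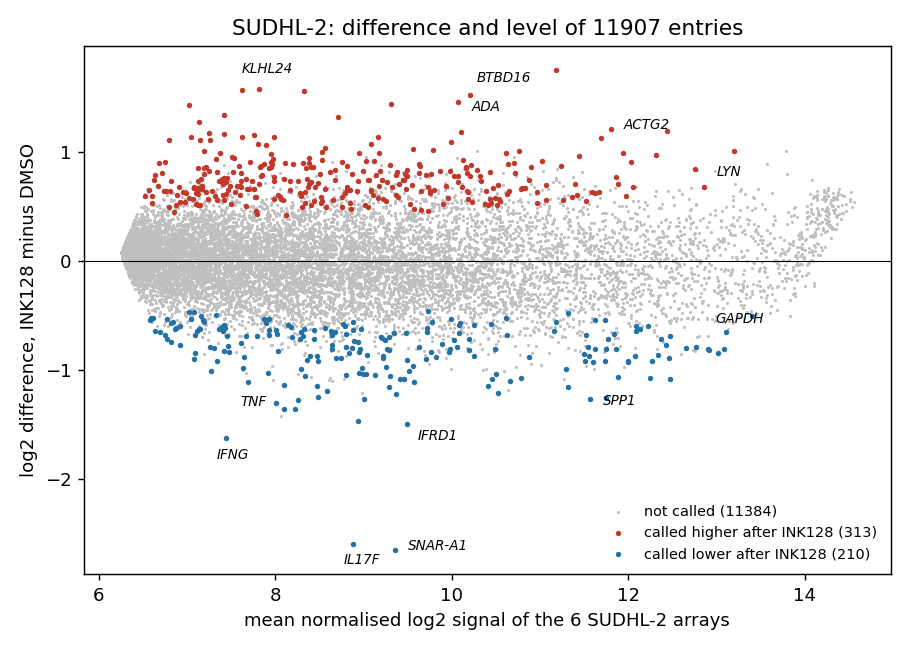
Each point is one of the 11907 entries, with its mean normalised log2 signal over the 6 SUDHL-2 arrays on the horizontal axis and its log2 difference, INK128 minus DMSO, on the vertical axis. The 313 entries called higher (red) and 210 called lower (blue) spread over most of the signal range, IL17F and SNAR-A1 lie below all others, and the entries above a signal of 14 sit mostly above 0 with none called.

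The count depended on the spread estimate and on single arrays. The 6 SUDHL-2 arrays fitted alone called 8 entries (0.0672%): MS4A7, BTBD16, MYH11, HPS3 and the probe ILMN_1706536 higher, and IL17F, SNAR-A1 and TNF lower. In that fit 1606 entries had an unadjusted p under 0.05, and all 523 called entries were among them. Both fits use the same SUDHL-2 values, so this overlap is no independent check. With each SUDHL-2 array left out in turn, the count ran as low as 163 entries, in the absence of DMSO replicate 3, and as high as 1295, in that of INK128 replicate 1. Replicates differed more in SUDHL-2 than in SUDHL-4: the root mean square SD over entries was 0.34 in the INK128 group and 0.25 in the DMSO group of SUDHL-2, against 0.22 and 0.16 in those groups of SUDHL-4. DMSO replicate 1 detected 17098 probes and the other 5 arrays 14699 to 16182, and on the first principal component (55.4% of the variance) DMSO replicate 1 and INK128 replicate 3 lay at opposite ends. Without both of those arrays 318 entries were called, 211 of them among the 523. A gene is described below as "held" where its call stayed when each of the 6 arrays was left out in turn. Of 99 called genes singled out by the naming rule, 44 held, and none of the 99 changed its direction under any setting run.

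**Figure D2:**
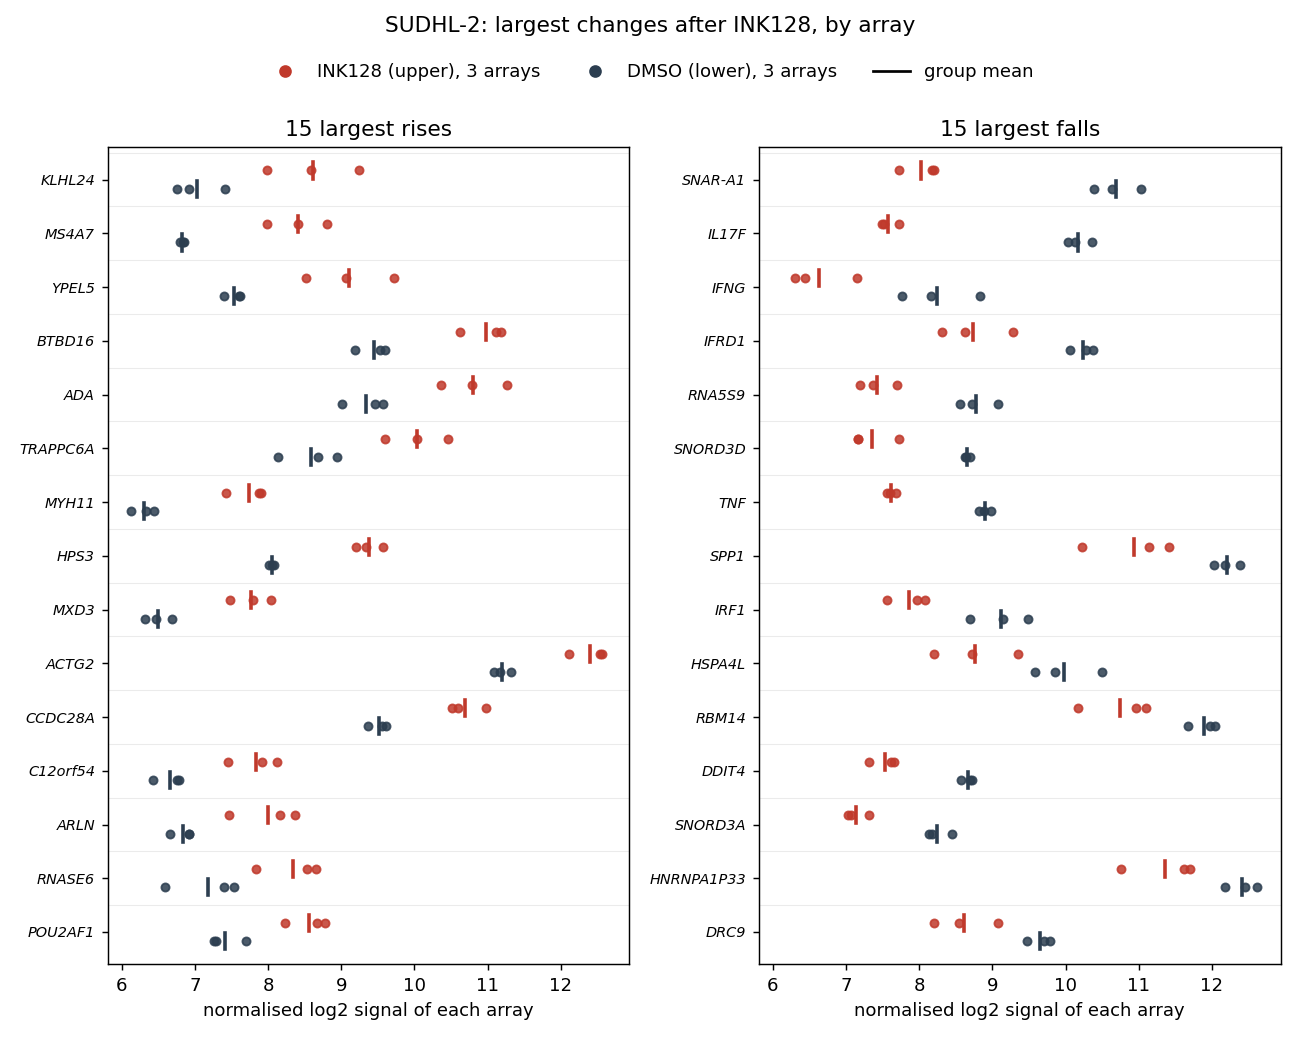
Normalised log2 signal of each array for the 15 genes with the largest called rises (left) and the 15 with the largest called falls (right), INK128 arrays in red above and DMSO arrays in dark blue below, with vertical bars at the group means. The arrays of the groups do not overlap in any of the 30 genes, and the gap is widest for SNAR-A1 and IL17F.

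Cytokine genes were among the largest falls. IL17F, a cytokine of the IL-17 family, had 7.52, 7.72 and 7.49 on the INK128 arrays and 10.04, 10.36 and 10.13 on the DMSO arrays. The INK128 arrays lay well under the lowest DMSO array, and both groups were tight. The difference was -2.60 ± 0.14 (SE, limma adjusted p = 4.85e-07), and the gene held. IFNG, the type II interferon, had 7.15, 6.30 and 6.44 on the INK128 arrays and 8.82, 7.77 and 8.16 on the DMSO arrays. Its groups were apart but wider, and 2 of the 3 INK128 arrays detected it while replicate 3 stood at the floor of its array. It fell by 1.62 ± 0.25 (limma adjusted p = 0.00479) and held. TNF, the founding member of its cytokine family and a target of NF-kB, had 7.61, 7.56 and 7.68 after INK128 and 8.98, 8.89 and 8.81 after DMSO. All 6 values lay close to their group mean. It fell by 1.28 ± 0.12 (limma adjusted p = 0.000138) and held.

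SPP1, which encodes the secreted phosphoprotein osteopontin, read 11.15, 11.42 and 10.23 after INK128 against 12.18, 12.03 and 12.39 after DMSO. INK128 replicate 3 was the lowest of its group. The difference was -1.27 ± 0.25 (limma adjusted p = 0.0138), and without DMSO replicate 3 the adjusted p was 0.0635. IL6 read 9.55, 9.21 and 9.40 after INK128 against 10.27, 10.23 and 10.29 after DMSO, with no overlap, and fell by 0.88 ± 0.13 (limma adjusted p = 0.00455). CXCL13, the chemokine that draws B cells into follicles, moved the other way, with 13.11, 12.85 and 12.44 on the INK128 arrays and 11.84, 11.75 and 11.89 on the DMSO arrays. Every INK128 array was above every DMSO array, and the rise was 0.97 ± 0.16 (limma adjusted p = 0.00656).

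Over the list of cytokines, chemokines and their receptors, 2 of 36 measured members were higher (CXCL13 and CD27) and 4 were lower (IL17F, TNF, SPP1 and IL6), beside 2.63% and 1.76% of all entries. The list's median was -0.03 and was 0.12 without INK128 replicate 1. In 7 members the INK128 arrays lay wholly above and in 8 wholly below the DMSO arrays. Over all entries these shares were 11% and 9.58%. CD27, a costimulatory receptor found on memory B cells, rose by 0.91 ± 0.16 (limma adjusted p = 0.00816) and was detected on 1 of the 3 DMSO arrays. On DMSO replicates 2 and 3 it stood at the floor. LTA, the gene of lymphotoxin alpha, had a difference of -0.63 with a limma adjusted p of 0.0569 and was not called.

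Of 41 measured NF-kB factors and targets, 5 were lower and 1 was higher, beside 1.76% and 2.63% of all entries. The list's median was -0.08. The 5 were TNF, IL6, TRAF1, IER3 and ICAM1. TRAF1, an adaptor of TNF receptors, read 8.03, 8.60 and 8.21 after INK128 and 9.72, 9.04 and 9.22 after DMSO. The groups did not overlap, the difference was -1.05 ± 0.18 (limma adjusted p = 0.00821) and the gene held. IER3, an early response gene, fell by 0.80 ± 0.15 (limma adjusted p = 0.0113). ICAM1 had a difference of -0.77, and its call was lost without INK128 replicate 2 or any 1 DMSO array (limma adjusted p up to 0.111). CD83, a surface protein of activated B cells, was the one member that rose, by 0.86 ± 0.14 (limma adjusted p = 0.00638). NFKBIA, the inhibitor that NF-kB itself induces, differed by 0.06 (limma adjusted p = 0.899). On leaving out single arrays the count of lower members was 3 in the absence of DMSO replicate 3 and 6 in that of INK128 replicate 3.

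IRF1, a transcription factor induced by interferon and by NF-kB, had 7.55, 8.08 and 7.96 on the INK128 arrays and 9.49, 8.70 and 9.15 on the DMSO arrays. All INK128 values were under all DMSO values. It fell by 1.25 ± 0.20 (limma adjusted p = 0.00638) and held. It was the only called member of 31 interferon-stimulated genes, whose median was 0.02. IL17F and IFNG are best known from T and NK cells, and the markers of those cells give the following. CD3D, CD3E, CD3G, CD247 and ZAP70 were not detected on all arrays of either group. CD2 was detected on all DMSO arrays but not on all INK128 arrays. Its difference was -0.32, with the INK128 arrays wholly below the DMSO arrays, and it was not called. GZMB, called lower at low signal, is given under the other observations. The signals of the 11 T-cell markers summed to between 680 and 694 per INK128 array and between 735 and 914 per DMSO array, where the lowest signal counted as detected was 78.3 to 78.5 for one probe on INK128 arrays and 86.5 to 91.4 on DMSO arrays. The 7 NK-cell markers summed to 451 to 459 after INK128 and 483 to 522 after DMSO.

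The deepest fall of all was that of a small noncoding RNA. SNAR-A1, a short RNA of a primate-specific family made by RNA polymerase III and bound by the protein NF90, read 8.20, 8.17 and 7.72 on the INK128 arrays and 11.04, 10.39 and 10.63 on the DMSO arrays. The gap between the groups exceeded the range within either. The difference was -2.66 ± 0.20 (limma adjusted p = 1.87e-05), and the gene held. RNA5S9, a 5S ribosomal RNA gene, had 7.70, 7.38 and 7.19 after INK128 and 9.07, 8.55 and 8.72 after DMSO. It fell by 1.36 (limma adjusted p = 0.00164) with no overlap. SNORD3D, a copy of the U3 small nucleolar RNA that works in pre-rRNA cleavage, had 7.73, 7.16 and 7.17 after INK128 and 8.69, 8.65 and 8.63 after DMSO. The DMSO arrays were nearly equal, and the fall was 1.30 ± 0.15 (limma adjusted p = 0.000865). RNA5S9 and SNORD3D held.

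Small noncoding RNAs were then gathered by symbol, a grouping chosen after these values were seen. Of 88 measured, 1 was higher (SNORA12, by 0.69) and 17 were lower, beside 2.63% and 1.76% of all entries. The median was -0.15. Each was detected on all DMSO arrays, but some were detected on fewer INK128 arrays. SNORD3C and SNORD65, both called lower, were detected on 1 INK128 array, with INK128 replicates 2 and 3 at the floor. All 5 spliceosomal snRNA entries fell: RNU6-1, RNVU1-7, RNVU1-18, RNU1-1 and RNU1-3, with differences between -0.80 and -0.62. Of 37 box C/D snoRNAs, a class that mostly guides methylation of ribosomal RNA, 7 fell. Among them were the U3 copies SNORD3A, SNORD3C and SNORD3D, which work in pre-rRNA cleavage. Of 38 box H/ACA snoRNAs and scaRNAs, which guide pseudouridylation, SNORA61 fell and SNORA12 rose. RPPH1, the RNA of RNase P, had a difference of -0.77, and BCYRN1, a brain-enriched RNA polymerase III transcript, one of -0.63. Most of these RNAs lack a poly(A) tail while labelling began from oligo-dT, and U1, U3, U6, 5S and SNAR genes have near-identical copies that probes may share. The part of either in these differences was not tested.

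Among 18 protein subunits and factors of RNA polymerase III, 13 had a difference below 0 and the median was -0.28. None was called lower, against 3 without INK128 replicate 1. POLR3GL, at 0.75, was called higher, and its call was lost whichever of the 6 arrays was left out (limma adjusted p between 0.06 and 0.117).

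Ribosome biogenesis factors, the nucleolar proteins that assemble ribosomal subunits, leaned down with few exceptions. Of 61 measured members, 59 had a difference below 0, 8 were called lower and none higher, beside 1.76% of all entries called lower. The list's median was -0.47, against 0.01 for all entries. RRS1, a factor that brings 5S RNP into the large subunit, had 8.15, 8.78 and 8.55 on the INK128 arrays and 9.84, 9.14 and 9.43 on the DMSO arrays. The groups were apart, the difference was -0.98 ± 0.19 (limma adjusted p = 0.0154), and the adjusted p was 0.0562 and 0.0538 when DMSO replicates 1 and 3 were left out in turn. NIP7 had 11.50, 11.22 and 10.69 after INK128 and 11.95, 12.09 and 12.15 after DMSO. INK128 replicate 3 was again the lowest. Its difference was -0.92 ± 0.19 (limma adjusted p = 0.0189), and it was not called without DMSO replicate 3 (0.0767) or DMSO replicate 2 (0.0502).

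The other called members were RPF2 (-0.87), WDR12 (-0.81), CCDC86 (-0.81), RRP1B (-0.72), PES1 (-0.72) and POLR1E, a subunit of RNA polymerase I (-0.48). PES1 and WDR12 belong to one complex, PeBoW, which processes the rRNA of the large subunit. WDR12 was not called when any array other than INK128 replicate 1 was left out, nor PES1 when any array other than DMSO replicate 2 was (limma adjusted p up to 0.13). The count of 8 was not stable: it was 0 without DMSO replicate 3, 16 without INK128 replicate 1 and 1 without both INK128 replicate 3 and DMSO replicate 1. The median stayed between -0.50 and -0.35 over the 6 fits that leave out 1 array.

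The genes of the translation machinery itself come next. Of 68 cytosolic ribosomal protein genes, the classic targets of mTORC1 through their 5' terminal oligopyrimidine tract, 1 was lower and none higher, and the median was 0.10. That median was -0.13 without DMSO replicate 1, -0.07 without INK128 replicate 3, -0.32 without both of these arrays, -0.07 with quantile normalization and -0.03 with median centring. The lower count was 4 without INK128 replicate 1. The one gene was RPL14, with 11.16, 11.06 and 11.00 on the INK128 arrays and 11.59, 12.26 and 11.92 on the DMSO arrays. The difference was -0.85 ± 0.15 (limma adjusted p = 0.00988), and its probes read -1.22 and -0.48. Of these 68 genes, 23 had a mean signal above 14, the top of the measured range, where the median difference of all 157 entries was 0.43. Those 23 had a median of 0.38 and the remaining ribosomal protein genes one of -0.04. The part of signal saturation in this was not tested.

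Among 23 other mRNAs with such a tract, HNRNPA1 fell by 0.81 and none rose, with a median of -0.18. Its call was lost without INK128 replicate 2 or 3 or DMSO replicate 2 or 3 (limma adjusted p up to 0.107). Of 34 initiation and elongation factors, EIF2S3 (-0.57) and EIF5B (-0.46), both of which act in translation initiation, were lower and none was higher. Both calls were lost when any array other than INK128 replicate 1 was left out (limma adjusted p up to 0.131), and without that one the count was 4. Of 33 aminoacyl-tRNA synthetases, MARS2 (-0.84), WARS1 (-0.69) and MARS1 (-0.66) were lower, with a median of -0.29. The synthetase count was 0 without DMSO replicate 3 and 6 without INK128 replicate 1. Mitochondrial ribosomal proteins (77 measured, median -0.07) and proteasome subunits (37 measured, median -0.22) had no called member.

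Genes of amino acid supply under ATF4, the transcription factor of the integrated stress response whose translation mTORC1 promotes, leaned down. Of 27 measured, 5 were lower and none higher, beside 1.76% and 2.63% of all entries, with a median of -0.39. DDIT4, an inhibitor of mTORC1 that ATF4 and hypoxia induce, read 7.32, 7.66 and 7.62 after INK128 and 8.69, 8.58 and 8.73 after DMSO. The groups were tight and well apart. It fell by 1.13 ± 0.14 (limma adjusted p = 0.000976) and held. ATF5, an ATF4 relative, had 9.71, 9.88 and 9.77 on the INK128 arrays and 10.46, 10.67 and 10.68 on the DMSO arrays, which did not overlap. The difference was -0.82 ± 0.13 (limma adjusted p = 0.00486). MTHFD1L, a mitochondrial enzyme of one-carbon metabolism, had 9.04, 9.43 and 9.25 after INK128 and 10.26, 9.93 and 9.88 after DMSO. It fell by 0.79 ± 0.15 (limma adjusted p = 0.0113) and held, as did ATF5. CHAC2 (-0.99), which degrades glutathione, and CTH (-0.56), the last enzyme of cysteine synthesis, completed the 5. The probes of CTH read between -0.97 and -0.31. Between 3 (without INK128 replicate 2) and 8 (without INK128 replicate 1) members were lower on leaving out single arrays.

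Of 41 genes of folding in the endoplasmic reticulum, 3 were lower and none higher, with a median of -0.15. HSPA5, the lumenal HSP70 known as BiP, had 7.61, 7.45 and 7.16 on the INK128 arrays and 8.77, 8.24 and 8.30 on the DMSO arrays. Each group was about as wide as the other, with no overlap, and the difference was -1.03 ± 0.16 (limma adjusted p = 0.00593). CANX, the membrane lectin chaperone calnexin, had 9.36, 9.08 and 8.59 after INK128 and 10.22, 9.93 and 9.91 after DMSO. It fell by 1.01 ± 0.18 (limma adjusted p = 0.00988), and both genes held. FKBP11, a prolyl isomerase of secretory cells, had a difference of -0.68. It was not called when any array other than INK128 replicate 3 was left out (limma adjusted p up to 0.12). Of 39 chaperones of cytosol and mitochondria, FKBP4, GRPEL1 and TCP1 were lower and none was higher, with a median of -0.39. That count was 0 without DMSO replicate 1 and 11 without INK128 replicate 1.

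Some of these gene families are known for particular promoter elements. The letters were looked up in RefSeq promoters (GRCh38.p14, 250 bases before to 50 after each gene's start, both strands). Shown are the stretches of the called genes that hold the motifs searched for their list, with the motif in capitals. The first pair holds the ER stress response element (CCAAT and CCACG with 9 bases between them), bound by NF-Y with ATF6 or XBP1, which begins 66 bases before the start of HSPA5 (chr9:125241386-125241414, minus strand) and 151 bases before that of CANX (chr5:179698773-179698801, plus strand). The third holds TGATGNAA, the core to which ATF4 binds, 129 bases before the start of MTHFD1L (chr6:150866352-150866369, plus strand). The fourth holds the E-box CACGTG of MYC and MAX, 25 bases before the start of CCDC86 (chr11:60842083-60842098, plus strand), and the fifth the same letters just after the start of PES1 (chr22:30591887-30591902, minus strand). The sixth holds the FOXO site GTAAACA, 223 bases before the start of BCL2L11 (chr2:111120686-111120702, plus strand).
HSPA5: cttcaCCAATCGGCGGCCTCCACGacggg
CANX: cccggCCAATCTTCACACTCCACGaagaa
MTHFD1L: ggctcTGATGCAAtcgcg
CCDC86: ggctgCACGTGcgcag
PES1: cagggCACGTGcggga
BCL2L11: ctccgGTAAACAcgcca

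The ER stress response element stood in 6 of 37 promoters of the ER folding list (16.2%) and in 0.0806% of all 27305 promoters. Of the 3 called ER genes HSPA5 and CANX had it. TGATGNAA stood in 6 of 23 promoters of the ATF4 list (26.1%) against 3.67% of all, and MTHFD1L alone of the 5 called had it. The E-box stood in 18 of 50 promoters of the ribosome biogenesis list (36%) against 7.43% of all, in PES1 and CCDC86 of the 4 called genes with a promoter entry. It also stood in 9 of 28 promoters of the lysosome list (32.1%), of whose 42 measured genes ATP6V1D alone was called (higher, by 0.63, and lost without INK128 replicate 2 or any 1 DMSO array, limma adjusted p up to 0.0971). The heat shock element stood in 4 of 33 promoters of the chaperone list (12.1%) against 0.487% of all, and no called gene had it. The FOXO site stood in 4 of 19 promoters of the FOXO list (21.1%) against 3.41% of all, with BCL2L11 the one called gene that had it. These are matches of letters and not measured sites.

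Some genes that restrain growth were higher. Among 22 CDK inhibitors and antiproliferative genes, 5 were higher and none lower, beside 2.63% of all entries called higher, with a median of 0.27, or 0.034 with no filter on detection. KLHL24, a substrate adaptor of a cullin ubiquitin ligase, had 9.25, 8.59 and 7.99 on the INK128 arrays and 7.41, 6.76 and 6.92 on the DMSO arrays. INK128 replicate 1 was the highest and the groups did not meet. The rise was 1.58 ± 0.28 (limma adjusted p = 0.00952), and the gene held. YPEL5, a member of the Yippee family, had 9.72, 9.07 and 8.52 after INK128 and 7.60, 7.40 and 7.62 after DMSO. It rose by 1.57 ± 0.25 (limma adjusted p = 0.00528) and held. HBP1 (0.81), a repressor of cell cycle genes, PDCD4 (0.75), an inhibitor of the helicase eIF4A whose probes read 0.50 and 1.00, and RBL2 (0.59), the pocket protein p130, were also higher. The count was 2 without INK128 replicate 2 and 6 without INK128 replicate 1. MXD3, which competes with MYC for MAX, rose by 1.28 (limma adjusted p = 0.00281) and held, while MYC itself read 10.46, 10.64 and 10.41 after INK128 and 10.70, 9.94 and 10.26 after DMSO, with overlapping groups.

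Of 20 FOXO factors and targets, 4 were higher and none lower, beside 2.63% and 1.76% of all entries, with a median of 0.20. FBXO32, the ubiquitin ligase subunit atrogin-1, had 6.93, 7.20 and 6.95 on the INK128 arrays and 5.95, 6.44 and 6.33 on the DMSO arrays, of which 1 detected it. The rise was 0.79 ± 0.15 (limma adjusted p = 0.0111) and held. DMSO replicates 2 and 3 stood at the floor of their arrays, so its size and spread rest partly on floored values. RBL2 rose by 0.59, BCL2L11, the death activator BIM, by 0.57, and FOXO3 by 0.52. The call of BCL2L11 was lost without INK128 replicate 2 or 3 or DMSO replicate 1 or 3 (limma adjusted p up to 0.0945). That of FOXO3 was lost when any array other than INK128 replicate 1 was left out (limma adjusted p up to 0.129). Over single arrays left out, the count was between 1 (without INK128 replicate 2) and 6 (without INK128 replicate 1). The median was 0.009 with no filter on detection, and 3 of the 20 members were kept through 1 of the groups only.

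Of 36 autophagy genes, 4 were higher and none lower, beside 2.63% and 1.76% of all entries, with a median of 0.17. MAP1LC3B, the LC3 protein that is joined to autophagosome membranes, had 10.30, 9.93 and 10.00 after INK128 and 9.21, 9.42 and 9.67 after DMSO. The highest DMSO array lay under the lowest INK128 array, and the rise was 0.64 ± 0.14 (limma adjusted p = 0.0254). It was not called without DMSO replicate 1 (0.0881) or DMSO replicate 2 (0.0619). MAP1LC3A rose by 0.81, WDR45 by 0.64 and UVRAG by 0.48, and the last pair was not called when any array other than INK128 replicate 1 was left out (limma adjusted p up to 0.118). No member was called in the absence of DMSO replicate 1, and 5 were in that of INK128 replicate 1. Of the 36, 5 were kept through 1 group only. In the mTOR pathway, RHEB, the GTPase that activates mTORC1 (0.67), LAMTOR2, a subunit of its lysosomal anchor (0.73), and PDCD4 were higher out of 48, with none lower. On leaving out single arrays the mTOR count was at most 2, and it was 0 without DMSO replicate 2.

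Some B-cell genes were also higher. Of 34 members of B-cell receptor signaling, 7 were higher and none lower, beside 2.63% and 1.76% of all entries. The list's median was 0.20. RASGRP3, which activates RAS downstream of the receptor, had 12.08, 11.88 and 11.82 on the INK128 arrays and 11.02, 10.99 and 10.87 on the DMSO arrays. The groups were tight and apart. It rose by 0.97 ± 0.14 (limma adjusted p = 0.00281) and held. FCRLA, an Fc receptor-like protein of B cells, had 10.87, 11.28 and 11.31 after INK128 and 10.20, 10.30 and 10.26 after DMSO. It rose by 0.90 ± 0.15 (limma adjusted p = 0.00703) and held.

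Kinases next to the receptor were among them. LYN had 13.12, 13.10 and 13.36 after INK128 and 12.36, 12.56 and 12.63 after DMSO, with no overlap. Its rise was 0.68 ± 0.13 (limma adjusted p = 0.0153), and without DMSO replicate 1 the adjusted p was 0.0521. SYK rose by 0.78 ± 0.19 (limma adjusted p = 0.0386) and BLK by 0.61 ± 0.13 (limma adjusted p = 0.0195). IGLL1, a surrogate light chain, was higher by 1.01 and RASGRP1 by 0.66. BTK, the kinase between SYK and calcium release, differed by -0.13 (limma adjusted p = 0.699). The count of 7 became 3 in the absence of DMSO replicate 3 and 8 in that of INK128 replicate 1. Of the 34 members, 4 were kept through 1 group only.

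**Figure D3:**
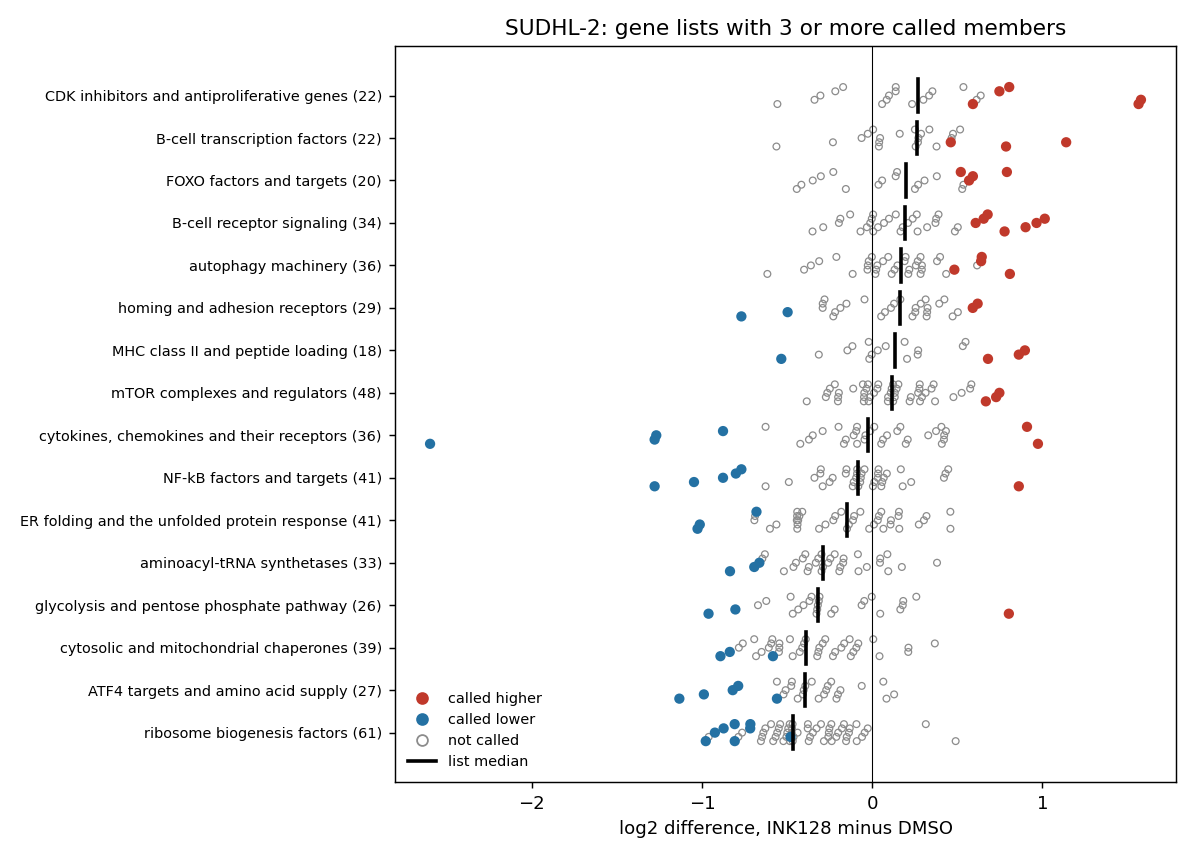
Log2 difference, INK128 minus DMSO, of every measured member of the 16 gene lists with 3 or more called members, with the number measured in brackets, filled points for called members, open points for the rest and a black bar at each list's median. Ribosome biogenesis factors lie almost wholly below 0 with a median of -0.47, while called members of the B-cell receptor, FOXO and antiproliferative lists all lie above 0.

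Of 22 B-cell transcription factors, 3 were higher and none lower, with a median of 0.26. POU2AF1, the coactivator of octamer-dependent transcription in B cells, had 8.23, 8.67 and 8.78 on the INK128 arrays and 7.70, 7.29 and 7.26 on the DMSO arrays. The groups did not overlap, the rise was 1.14 (limma adjusted p = 0.00821) and the gene held. TCF4 (0.79), the E protein E2-2, held too, while BCL11A (0.46) had probes at 0.80, 0.30 and 0.28 and was not called when any array other than INK128 replicate 1 was left out (limma adjusted p up to 0.12). Among 18 genes of MHC class II presentation, HLA-DOB rose by 0.90 ± 0.15 (limma adjusted p = 0.00656), CD83 by 0.86 and HLA-DMB by 0.68, and RFXAP, a subunit of the factor that drives class II promoters, had a difference of -0.53, whose call was likewise lost (limma adjusted p up to 0.117). Of 16 class I genes, TAP1, a subunit of the peptide transporter, was the one called member, with a difference of -0.71, and it was not called without DMSO replicate 3 (limma adjusted p = 0.0834) or DMSO replicate 1 (0.074).

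Several of the largest rises belong to no list. MS4A7, a membrane protein of the CD20 family, had 8.81, 8.41 and 7.99 on the INK128 arrays and 6.84, 6.85 and 6.79 on the DMSO arrays. The DMSO arrays were almost equal and far below. The rise was 1.58 ± 0.18 (limma adjusted p = 0.000707). HPS3, a subunit of the complex BLOC-2 that sorts cargo to lysosome-related organelles, had 9.58, 9.34 and 9.21 after INK128 and 8.05, 8.08 and 8.02 after DMSO. It rose by 1.33 ± 0.14 (limma adjusted p = 0.000588). BTBD16 had 11.11, 10.62 and 11.18 after INK128 and 9.19, 9.60 and 9.53 after DMSO, a rise of 1.53 ± 0.17 (limma adjusted p = 0.000629). ADA, the deaminase that clears adenosine and deoxyadenosine, had 10.36, 10.78 and 11.27 on the INK128 arrays against 9.01, 9.57 and 9.46 on the DMSO arrays. It rose by 1.46 ± 0.23 (limma adjusted p = 0.00479). The probe ILMN_1706536, to which no single symbol is assigned, rose by 1.76, the most of all entries. The 4 genes of this paragraph held.

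ACTG2 and MYH11 also stood among the 15 largest rises. ACTG2, the enteric gamma actin, had 12.12, 12.56 and 12.54 after INK128 and 11.32, 11.09 and 11.18 after DMSO, and it rose by 1.21 (limma adjusted p = 0.00103). MYH11, the smooth muscle myosin heavy chain, had 7.43, 7.91 and 7.87 after INK128 and 6.13, 6.44 and 6.33 after DMSO. There 1 of 3 arrays detected it, and DMSO replicates 2 and 3 stood at the floor. MYH11 rose by 1.44 (limma adjusted p = 0.000629), and both genes held. Of 10 stromal and epithelial markers EPCAM alone was detected on all arrays of either group, and COL1A1, COL1A2, COL3A1, DCN and LUM were not. TRAPPC6A (1.44), CCDC28A (1.19), C12orf54 (1.18), ARLN (1.17) and RNASE6 (1.16) completed the 15. The remaining large falls were IFRD1 (-1.49), HSPA4L (-1.22), RBM14 (-1.15), SNORD3A (-1.11), the pseudogene HNRNPA1P33 (-1.06) and DRC9 (-1.05). RNASE6 was not called without INK128 replicate 2 or 3 or DMSO replicate 1 (limma adjusted p up to 0.0646). The call of HSPA4L was lost without INK128 replicate 2 or 3 or DMSO replicate 1 or 3 (limma adjusted p up to 0.0778). HNRNPA1P33 was not called without DMSO replicate 1 or 3 (limma adjusted p up to 0.079), nor DRC9 without DMSO replicate 3 (0.0523).

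In metabolism, called members were few. Of 26 genes of glycolysis and the pentose phosphate pathway, PFKM, the muscle phosphofructokinase, and HK2, the inducible hexokinase, were lower and PGLS was higher, with a median of -0.32. PFKM had 8.79, 9.30 and 9.15 on the INK128 arrays and 10.27, 9.83 and 10.02 on the DMSO arrays. It fell by 0.96 ± 0.16 (limma adjusted p = 0.00652) and held, while HK2 (-0.80) was not called without DMSO replicate 1 (0.0583) or INK128 replicate 3 (0.0512). PGLS (0.80) was not called when any array other than INK128 replicate 1 was left out (limma adjusted p up to 0.144). GAPDH read 12.01, 12.66 and 13.14 after INK128 and 13.10, 13.09 and 13.02 after DMSO. Its groups overlapped, and the difference of -0.47 was not called (limma adjusted p = 0.286). The 69 respiratory chain and ATP synthase genes had no called member and a median of 0.24, which was 0.096 without DMSO replicate 1 and -0.018 without both DMSO replicate 1 and INK128 replicate 3. In cholesterol and fatty acid synthesis TM7SF2 was the one called gene of 29 (0.91, higher), and its call was lost like that of PGLS (limma adjusted p up to 0.131).

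Cell cycle lists had few called members. None of 55 genes of G1/S transition and DNA replication was called, with a median of -0.10, but 7 were higher and 2 lower without INK128 replicate 1. CENPA (0.57) was the one called of 65 G2/M genes, with a median of -0.02, and its call was lost without INK128 replicate 3 or any 1 DMSO array (limma adjusted p up to 0.099). The G2/M median was 0.12 without INK128 replicate 3 and 0.076 without DMSO replicate 1, and without both the medians were 0.21 for G2/M and 0.001 for G1/S. Of 18 BCL2 family members only BCL2L11 was called, of 18 p53 targets only ZMAT3 (0.65), of 34 histones only H2AC6 (-0.91) and of 29 oxidative stress genes none. ZMAT3 was not called without INK128 replicate 2 or any 1 DMSO array (limma adjusted p up to 0.0973), and H2AC6 held. Among 29 homing and adhesion receptors S1PR4 (0.62) and TSPAN31 (0.59) were higher and ICAM1 and SLAMF7 (-0.50) lower. S1PR4, TSPAN31 and SLAMF7 were not called when any array other than INK128 replicate 1 was left out (limma adjusted p up to 0.119), and neither direction had a call without INK128 replicate 2. DDIT4 and BHLHE40 (-0.65) were the called members, both lower, of 20 genes of the hypoxia response outside glycolysis, and BHLHE40 was not called without INK128 replicate 3 or any 1 DMSO array (limma adjusted p up to 0.1). Methionine cycle and polyamine genes had no called member of 18, nucleotide synthesis 1 higher (CTPS2, 0.61) and 1 lower (PPAT, -0.56) of 26, and homologous recombination and Fanconi anemia 1 higher (TOPBP1, 0.86) and 1 lower (CLSPN, -0.62) of 28. All 4 calls were lost in at least 2 of the 6 fits that leave out 1 array.

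The study followed some genes by name, and as it picked them on these samples they are no independent evidence of a direction. Of those 11 genes, 4 were higher (TCL1A, TCL1B, CD27 and LYN) and 3 lower (FKBP4, MARS1 and FKBP11). TCL1A, a coactivator of AKT, had 10.16, 10.34 and 11.13 after INK128 and 9.23, 9.61 and 9.51 after DMSO. The groups were apart, with INK128 replicate 3 the highest. It rose by 1.09 ± 0.24 (limma adjusted p = 0.0247). It was not called without DMSO replicate 1 (0.0939), DMSO replicate 3 (0.0767) or INK128 replicate 3 (0.0574). TCL1B, its neighbor and relative, had 8.19, 8.36 and 8.78 after INK128 and 7.32, 7.59 and 7.46 after DMSO, rose by 0.98 ± 0.15 (limma adjusted p = 0.00469) and held. FKBP4, a cochaperone of HSP90, read 7.72, 8.53 and 8.65 after INK128 and 9.30, 9.01 and 9.27 after DMSO. Its difference was -0.89 ± 0.21 (limma adjusted p = 0.0309), and it was not called without DMSO replicate 3 (0.108) or DMSO replicate 1 (0.0977). CDC25A, CDC42 and YWHAZ had differences of -0.57, -0.58 and 0.01 and were not called (limma adjusted p = 0.0577, 0.0842 and 0.991). The probes of CDC42 read -0.84 and -0.32. The study's threshold was looser, at a false discovery rate up to 0.3. It reports CDC25A as lower after INK128, also by RT-qPCR of gradient fractions and by western blot, and YWHAZ as unchanged.

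Where SUDHL-2 differed from SUDHL-4 was tested as the difference between the responses in the 12-array fit. SUDHL-4 had 1662 of the same entries called (14%). The responses differed in 319 entries (2.68%), of which 181 were more positive in SUDHL-2 and 138 more negative. Of the 523 entries called in SUDHL-2, 175 were called in the same direction in SUDHL-4, 13 in the opposite direction, and 75 also differed between the lines. In 55 of the 523 no SUDHL-4 array detected the probes, IL17F, IFNG, IL6, CXCL13, BTBD16 and TCF4 among them, so no response can be given there. Of the 75, 25 were not detected on all arrays of a SUDHL-4 group. Leaving out DMSO replicate 3 of SUDHL-2 reduced the 319 to 68, and leaving out INK128 replicate 1 raised them to 949.

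TNF was detected in both lines: it fell by 1.28 in SUDHL-2, while in SUDHL-4 it had 9.92, 9.77 and 10.00 after INK128 and 9.44, 9.53 and 9.51 after DMSO. The SUDHL-4 groups were apart in the upward direction, and the responses differed by -1.68 (limma adjusted p = 0.000659). IRF1 differed likewise by -1.69 (limma adjusted p = 0.0134), with 8.55, 8.76 and 9.01 after INK128 and 8.43, 8.16 and 8.39 after DMSO in SUDHL-4. The SUDHL-4 difference of IRF1, 0.44, was not called (limma adjusted p = 0.179). LTA and LTB, whose differences in SUDHL-2 were -0.63 and 0.42, rose in SUDHL-4 by 0.74 and 3.15, and both responses differed between the lines (limma adjusted p = 0.0165 and 0.000831).

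Among small RNAs, SNAR-A1 fell in SUDHL-4 too, by 1.33, and the responses differed by -1.32 (limma adjusted p = 0.0297). RNA5S9 had 9.22, 9.09 and 8.99 after INK128 and 8.43, 8.06 and 8.47 after DMSO in SUDHL-4, the opposite order to SUDHL-2, and the responses differed by -2.14 (limma adjusted p = 0.00114). SNORD3D and SNORD3A stood at 0.05 and 0.01 in SUDHL-4. The 5 spliceosomal snRNA entries, all lower in SUDHL-2, had none called in SUDHL-4, but none of their responses differed between the lines (limma adjusted p between 0.103 and 0.415). Over all 88 small RNAs the lower calls numbered 17 in SUDHL-2, 7 of them box C/D snoRNAs, against 18 in SUDHL-4, where 11 were box C/D snoRNAs.

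MYB and GNG5 moved in opposite directions in the lines. MYB, a transcription factor of blood progenitors, had 10.43, 10.23 and 10.10 after INK128 and 9.70, 9.66 and 9.65 after DMSO in SUDHL-2. In SUDHL-4 it had 8.58, 8.68 and 8.83 after INK128 and 9.67, 9.58 and 9.62 after DMSO. The groups were apart in both lines, and the responses differed by 1.51 (limma adjusted p = 0.00114). GNG5, a G protein gamma subunit, rose by 0.70 in SUDHL-2 and had a difference of -1.10 in SUDHL-4. Its responses differed by 1.80 (limma adjusted p = 0.00446). The SUDHL-2 call of MYB was lost without INK128 replicate 2 or DMSO replicate 2 or 3 (limma adjusted p up to 0.0825). That of GNG5 was lost when any array other than INK128 replicate 2 was left out (limma adjusted p up to 0.12). ADA, higher in SUDHL-2 by 1.46, stood at 0.00 in SUDHL-4.

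**Figure D4:**
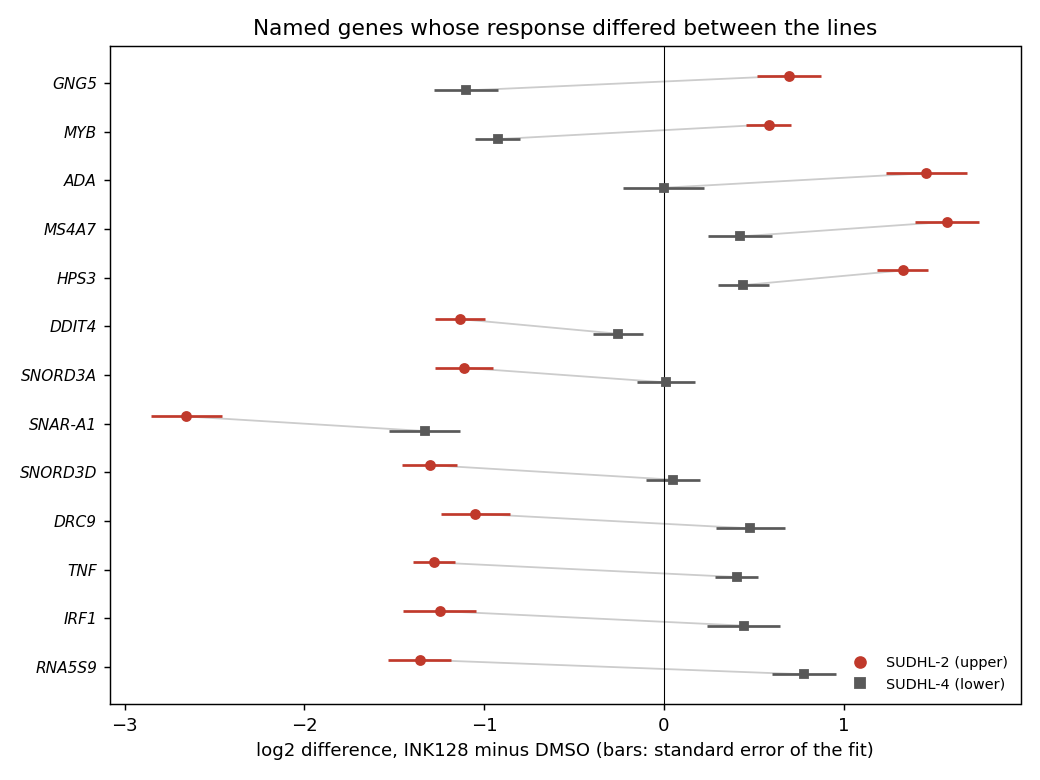
Log2 difference, INK128 minus DMSO, in SUDHL-2 (red circles) and SUDHL-4 (grey squares) for the 13 named genes called in SUDHL-2, detected in SUDHL-4 and with a response that differed between the lines, with bars for the standard error of the fit. RNA5S9, IRF1, TNF and DRC9 lie below 0 in SUDHL-2 and above 0 in SUDHL-4, and MYB and GNG5 the other way.

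The gene lists behaved in different ways across the lines. Ribosome biogenesis factors had a median of -0.47 here and of -0.40 in the other line, and 1 of 61 members (NOP16) differed. The ATF4 list had medians of -0.39 and -0.44, and DDIT4 alone differed. B-cell receptor signaling stood at a median of 0.20 in SUDHL-2 against 0.71 in SUDHL-4. There 21 of 34 members were higher, and 5 (BTK, CD72, CR2, FCRL2 and PTPN6) had a less positive response in SUDHL-2. The FOXO list had medians of 0.20 and 0.58, with 4 members less positive in SUDHL-2 and 1 more. TXNIP, a FOXO and glucose responsive gene, stood at 0.14 in SUDHL-2 against 1.85 in SUDHL-4 (limma adjusted p of the difference = 0.000831). Respiratory chain genes had a median of 0.24 in SUDHL-2 against -0.44 in SUDHL-4, with 14 of 69 lower in SUDHL-4, and COX7B, NDUFA3 and UQCR10 differed with a more positive response in SUDHL-2. The SUDHL-2 median of these genes turned to -0.018 without DMSO replicate 1 and INK128 replicate 3. The differences between the list medians themselves were not tested.

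**Figure D5:**
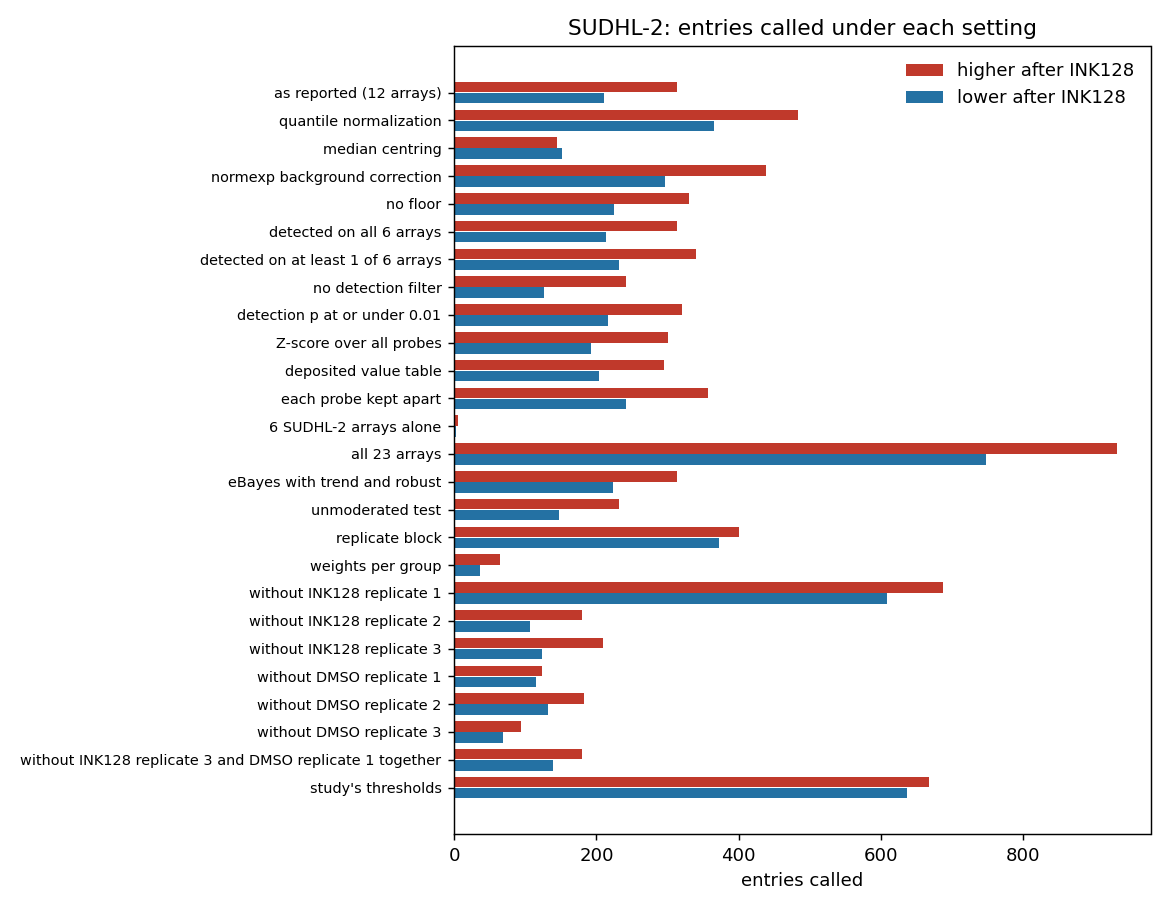
Number of entries called higher (red) and lower (blue) after INK128 in SUDHL-2 under the settings used here, at the top, and under each alternative below it. The bars reach from 8 entries in all with the 6 SUDHL-2 arrays alone to 1680 with all 23 arrays, and leaving out INK128 replicate 1 gave 1295.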

How the data were processed

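Polysomal RNA of 6 SUDHL-2 arrays (3 INK128, 3 DMSO) was compared, with 6 SUDHL-4 arrays in the same fit. The authors labelled 0.5 ug of RNA per array from an oligo-dT primer and read the BeadChips with GenomeStudio 1.9.0 (per the labels and the submitters' processing notes). The deposited probe signal is an intensity before the authors' normalization, with any background subtraction not stated. The deposited detection p-value of each probe came with it. The deposited score of each array equals the Z-score of its log signal within 5e-10 and was used as an alternative.

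Signals were floored at the lowest detected signal of each array, log2 transformed, turned into a Z-score per array and rescaled by the mean SD and mean of the 12 arrays, after the Z-score transformation of the study's methods. Kept probes were averaged per symbol. Values were fitted with limma 3.58.1 in R 4.3.3 (lmFit and eBayes, 1 mean per group, 12 arrays), and p-values were adjusted by Benjamini-Hochberg over 11907 entries. Only 3 arrays per group limit the precision, and intensities carry no count depth. The members and gene lists were chosen with earlier results of these data known. Named genes were the 15 largest called rises and falls without overlap, up to 4 members with the smallest p of each list, the genes the study names with GAPDH, and the 4 largest line differences each way, and further called list members are named with their difference. Of the probes read, 30113 carried 1 symbol, 8 several and 17110 none in the platform annotation. The script was tested on simulated data. Alternatives covered the scaling, background, floor, detection filter, arrays in the fit, eBayes options, a replicate block, leaving out arrays and the study's thresholds.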

Additional observations from a re-analysis of the deposited data

Results flagged for a closer look

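For 13 named genes called in SUDHL-2 and detected in SUDHL-4 the response to INK128 differed between the lines (limma, difference of differences in the 12-array fit, SUDHL-2 minus SUDHL-4). More negative in SUDHL-2 were RNA5S9 (-2.14), IRF1 (-1.69), TNF (-1.68), DRC9 (-1.53), SNORD3D (-1.36), SNAR-A1 (-1.32), SNORD3A (-1.13) and DDIT4 (-0.88). More positive in SUDHL-2 were HPS3 (0.88), MS4A7 (1.15), ADA (1.46), MYB (1.51) and GNG5 (1.80). The adjusted p-values of these 13 ranged between 0.000659 for TNF and 0.0353 for HPS3. In 6 of them, RNA5S9, IRF1, TNF, DRC9, MYB and GNG5, the fitted differences of the lines had opposite signs and a size above 0.4 in both. In SUDHL-4 those of IRF1 (0.44) and DRC9 (0.48) were not called (limma adjusted p = 0.179 and 0.1205). DDIT4 was low on the SUDHL-2 arrays, at 7.32 to 7.66 after INK128 and 8.58 to 8.73 after DMSO, and high on the SUDHL-4 arrays, at 11.08 to 11.36 after INK128 and 11.35 to 11.61 after DMSO.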

How the results depend on the processing

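Against 523 entries called (313 higher, 210 lower), quantile normalization gave 848 (483 and 365), median centring 296 (145 and 151), the 6 SUDHL-2 arrays alone 8 (5 and 3), all 23 arrays 1680 (932 and 748), and the study's thresholds 1304 (667 and 637). Without a detection filter 126 were lower. Normexp, which gave 734 entries, and the other detection, floor, scaling and eBayes settings stayed within 1.5 times in number. An unmoderated test gave 379. Membership also changed: of the 523, 276 stayed called with median centring, 249 without a detection filter and 302 in the unmoderated test. Chosen after seeing the data, weights per group gave 100 (64 and 36), and leaving out INK128 replicate 3 and DMSO replicate 1 together gave 318 (179 and 139). Weights per array could not be fitted. Leaving out 1 array gave 163 to 1295 entries, 94 to 687 higher and 69 to 608 lower, by array 1295, 286 and 333 without INK128 replicates 1, 2 and 3, and 238, 315 and 163 without DMSO replicates 1, 2 and 3. The cause of these differences was not tested.

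The 319 differences between the lines became 172 with median centring, 566 without a detection filter, 1220 with all 23 arrays, 171 unmoderated, 182 without both arrays, and 68 to 949 without 1 array. Deviations of same-numbered SUDHL-2 arrays correlated at 0.46, -0.20 and 0.25. With 3 arrays per group these values cannot settle whether the numbers pair the samples. With a replicate block 772 entries were called, 372 of them lower, and the line difference was called in 569.

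Of 39 list medians, 25 kept their sign under every setting and 14 did not: ribosomal proteins, respiratory chain, cytokines, G1/S, G2/M, MYC network, MHC class I, interferon, histones, recombination, hypoxia, p53, oxidative stress and BCL2. The cytokine median ran between -0.090 and 0.12 without 1 array and was -0.13 without both. The FOXO median of 0.20 was 0.15 with quantile normalization, 0.31 with normexp, 0.26 with no floor, 0.25 with detection on all 6 arrays or at p of 0.01, 0.046 with detection on at least 1 array and 0.009 unfiltered, and 0.13 to 0.21 without 1 array. The autophagy median of 0.17 was 0.22 with median centring, 0.25 with normexp, 0.10 with detection on at least 1 array, 0.051 unfiltered, 0.13 with the Z-score over all probes or with probes kept apart, 0.12 with the deposited scores, 0.11 without both arrays, and 0.11 to 0.20 without 1. Unfiltered medians were -0.26 for ATF4, 0.009 for mTOR, 0.034 for CDK inhibitors (0.13 with detection on at least 1 array), 0.063 for the B-cell receptor, 0.009 for MHC class II and -0.29 for the study's genes. ER folding was -0.22 with normexp. Without both arrays ribosome biogenesis was -0.33 and the B-cell receptor 0.092. Without 1 array, synthetases ran between -0.32 and -0.17, ATF4 between -0.42 and -0.28, glycolysis between -0.40 and -0.10, MHC class II between 0.035 and 0.26, mTOR between 0.023 and 0.14, and the study's genes between -0.50 and -0.17.

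Of the 99 named called genes, 67 were called with median centring, 39 with weights per group, 60 without both arrays and 94 with the block. Signals near the detection limit bound the falls and rises of low genes.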

Other observations

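Some called genes outside the naming rule were singled out after their values were seen. CD274, which encodes the checkpoint ligand PD-L1, had 6.58, 6.30 and 6.44 on the INK128 arrays, 2 of them detected, and 7.32, 7.06 and 7.19 on the DMSO arrays. The groups were apart, and it fell by 0.75 ± 0.13 (limma adjusted p = 0.00977). IL4I1, a secreted amino acid oxidase of activated B cells, had a difference of -0.67 (limma adjusted p = 0.045) in SUDHL-2 and of 0.62 in SUDHL-4, where 3 INK128 arrays and 0 DMSO arrays detected it, and the responses differed by -1.29 (limma adjusted p = 0.0209). GZMB, the protease granzyme B, was low on all arrays, with 6.26, 6.24 and 6.44 after INK128, 2 of them detected, and 6.74, 6.90 and 6.93 after DMSO, and the limma adjusted p was 0.0336.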
